A study of Rattus norvegicus with 8 samples.

Results

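The enzymes described here are the cytochrome P450s and the enzymes that work beside or after them: flavin monooxygenases, epoxide hydrolases, glutathione transferases, sulfotransferases and UDP glucuronosyltransferases. A gene was taken when its probe set carried a single symbol that begins with Cyp, Ugt, Sult, Fmo or Ephx and a digit, or with Gst and the letter of the alpha, mu, pi, theta, kappa, omega or zeta class. Cyp26b1, an enzyme of retinoic acid breakdown, was set aside. The rule used names only, but it was chosen with earlier results of these data known. It gave 66 of the 11217 named genes, read by 72 of 20214 probe sets. The 5 genes with several probe sets were read from the one with the highest mean over the arrays.

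The samples were dorsal-caudal lung tissue of male Sprague-Dawley rats of 340 to 400 g, each called a biological replicate, hybridised to 1-colour Affymetrix rat arrays. Non-ventilated rats served as controls (2 arrays). The others were anaesthetised, given a tracheotomy and a jugular cannula, and ventilated for up to 3 hours at 18 mL/kg, 40 breaths per minute and a PEEP (positive end-expiratory pressure) of 0 cmH2O, lying prone (3 arrays) or supine (3 arrays). The labels do not say whether the controls were anaesthetised and operated on, and no age is stated. All values are log2, so a difference of 1 is a change by a factor of 2, and the number of arrays limits their precision.

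Cytochrome P450s are haem enzymes of the endoplasmic reticulum and mitochondria that oxidise foreign compounds, fatty acids, sterols and vitamins, with electrons from the reductase Por or from mitochondrial carriers. Flavin monooxygenases oxidise nitrogen and sulfur groups, epoxide hydrolases open reactive epoxides, and the conjugating enzymes attach glutathione, sulfate or glucuronic acid to the products. In the lung these enzymes are known above all from club cells of the airway, and in the body as a whole from hepatocytes.

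Several arrays stood apart before any comparison. The lung markers Sftpc (15.02 to 15.51) and Scgb1a1 (15.35 to 15.72) were high on all 8 arrays. Supine replicate 3 showed a gap between 3′ and 5′ beta-actin probe sets of 9.10, against 3.16 to 4.64 on the other arrays, a measure that widens when RNA is degraded. For GAPDH the gap was 8.41 against 0.70 to 1.92. Albumin (Alb), the main protein made by the liver, read 2.35 and 2.25 in controls, 2.35, 8.27 and 5.54 in prone, and 2.34, 2.35 and 12.44 in supine replicates 1 to 3. Transthyretin (Ttr), another liver product, read 2.14 and 1.97, then 2.19, 5.15 and 3.11, then 2.26, 2.04 and 9.94. Liver transcripts were thus measured on supine replicate 3, less on prone replicate 2 and least on prone replicate 3, and not above 2.35 for Alb on the other 5 arrays. All 6 neutrophil markers were higher on prone and supine replicate 1 than on the other 6 arrays.

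Several enzymes known mainly from liver were highest on the arrays with Alb. Of the 66 genes, 12 (18.2%) reached log2 5 only on arrays where Alb did, against 3.54% of all 20214 probe sets, a count made after the values were seen. Cyp2c6v1, a hepatic P450, read 2.73 on both controls, 2.86, 7.02 and 4.72 in prone and 2.94, 2.54 and 9.96 in supine replicates 1 to 3, which is the order of Alb. The P450s Cyp3a23-3a1 (7.84 on supine replicate 3, 4.92 on prone replicate 2, 3.85 on prone replicate 3 and at most 2.76 elsewhere) and Cyp3a2 (7.19, 4.07, 3.12 and at most 2.67) had the same order. Both belong to the family that metabolises the widest range of drugs in liver. The male-specific hepatic steroid hydroxylase Cyp2c11 read 7.99 on supine replicate 3 and at most 2.03 on any other array. The sulfotransferase Sult1c3 (7.72 against at most 2.42), the oestrogen sulfotransferase Sult1e1 (6.73 against at most 3.23) and the pi class transferase Gstp3 (6.18 against at most 2.06) were likewise at the low end of the scale on 7 arrays. Cyp2c13 (5.63), Cyp2c22 (6.51) and Sult1b1 (5.83) were also highest on supine replicate 3. The last 2 of the 12 did not follow Alb: the steroid hydroxylase Cyp21a1, which read 5.90 on supine replicate 3 but 4.76 and 4.46 on supine and prone replicate 1, and Cyp39a1, an oxysterol hydroxylase, which read 6.04 on prone replicate 3 and 3.68 on supine replicate 3. Cyp2a1, a hepatic P450 outside the 12, did not follow Alb either, at 4.10 on supine replicate 1 and 4.01 on supine replicate 3. By contrast Cyp2c7, also outside the 12, read 4.84 on supine replicate 3 and at most 2.32 elsewhere. A probe set shared by Gsta5 and Gsta2 read 7.07 there and at most 2.82 elsewhere. Of the 12 hepatocyte markers on the array, 10 were highest on supine replicate 3. The log2 of their summed level was 11.50 and 11.90 in controls, 10.39 to 11.39 in prone and 10.63 to 13.35 in supine lungs, and 10 of the 12 were under log2 5 in both controls. Fgg (10.90 and 11.45 in controls) and Serpina1 (9.84 and 9.91) made up most of the control sums, and neither was highest on supine replicate 3. The sums therefore do not rank the controls and prone lungs by liver signal. How far liver RNA contributes to any other value of these arrays was not tested.

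**Figure D1:**
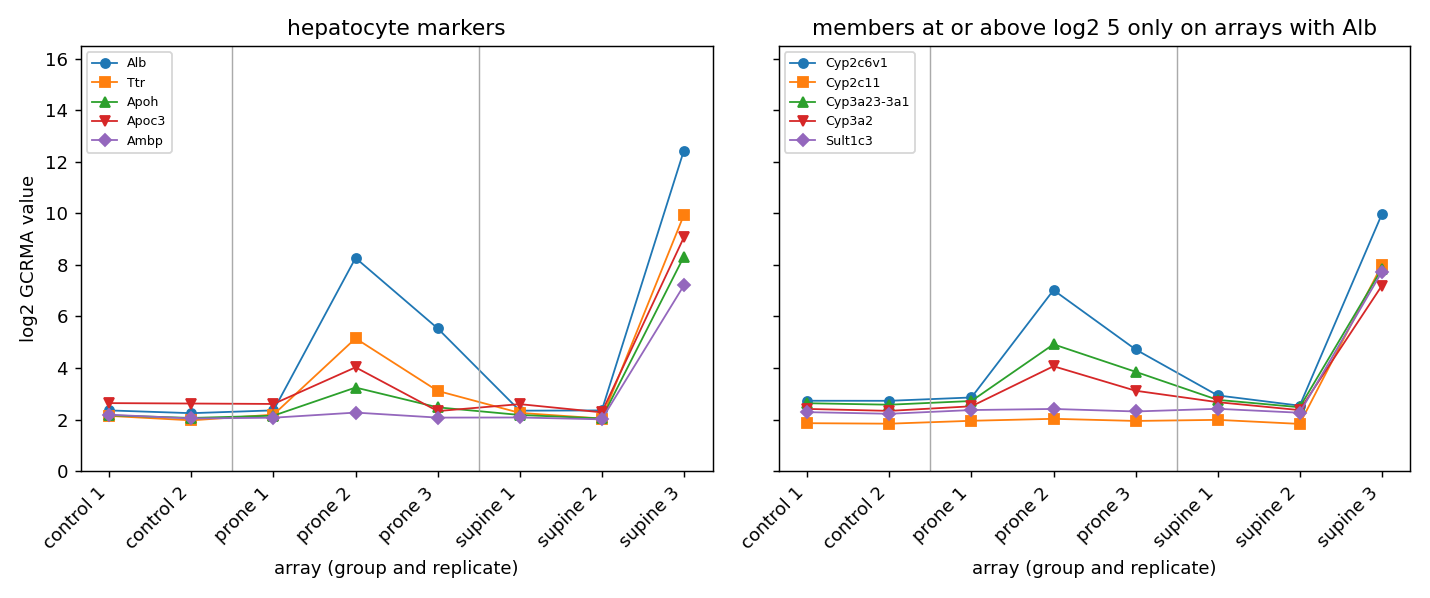
Log2 values (y axis) of 5 hepatocyte markers (left) and 5 enzyme genes (right) on each of the 8 arrays (x axis; grey lines separate control, prone and supine). Alb reached 12.44 on supine replicate 3, 8.27 on prone replicate 2 and 5.54 on prone replicate 3, and Cyp2c6v1 read 9.96, 7.02 and 4.72 on the same arrays.

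Of the 66 genes, 45 were at log2 5 or above on at least 2 arrays and were tested. Of the 21 that were not, 10 reached 5 on supine replicate 3 alone, 9 on no array, and 2 on another single array: Cyp39a1, and Cyp2t1, which read 5.02 in control replicate 2. The 9 were Cyp27b1, Cyp2a1, Cyp2c7, Gsto2, Sult1c2a, Sult1d1, Sult2a6, Ugt2b and Ugt2b35. Both glucuronosyltransferases with a single symbol were thus at the low end, which says nothing of the family: a probe set shared by 8 symbols of family 1 of these enzymes read 9.59 to 10.47 over the arrays. It is 1 of 5 probe sets with several symbols of these families, which enter no comparison.

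No gene among the 45 passed the test in any comparison. With limma and Benjamini-Hochberg adjustment over the 16896 probe sets tested, 0 of 45 passed at an adjusted p under 0.05 in prone against control lungs (0.0533% of all tested probe sets passed), 0 in supine against control (0.0533%), 0 in supine against prone (0%) and 0 when the 6 ventilated lungs were set against controls (0.142%). At an unadjusted p under 0.05 there were 6, 5, 1 and 5 of 45, or 13.3%, 11.1%, 2.22% and 11.1%, against 17.7%, 15.2%, 4.09% and 19.2% of all probe sets. The shares in both directions together were below the background in all 4 comparisons. Leaving out 1 array in turn moved these counts to 0 to 7 in prone, 1 to 9 in supine, 0 to 6 in supine against prone and 1 to 8 in ventilated lungs.

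The same counts were also split by direction. At an unadjusted p under 0.05, prone lungs had 2 genes higher (4.44%, background 7.67%) and 4 lower (8.89%, background 10%). Supine lungs had 0 higher (background 7.18%) and 5 lower (11.1%, background 8.05%). Ventilated lungs had 1 higher (2.22%, background 8.53%) and 4 lower (8.89%, background 10.6%), and supine against prone 0 higher (background 2.6%) and 1 lower (2.22%, background 1.49%). With counts this small, and moving as they did with single arrays, no order of the comparisons is read from them.

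Groups that did not overlap were counted next. All supine arrays were below both controls in 17 genes (37.8%, background 21.8%) and above them in 3 (6.67%, background 20%), 20 in all (44.4%, background 41.8%). All prone arrays were below both controls in 9 genes (20%, background 27.7%) and above in 5 (11.1%, background 20.9%), 14 in all (31.1%, background 48.6%). Both counts rest on the same 2 controls. Among the genes above controls, Cyp2c6v1 (in prone lungs) and Cyp7b1 (in both positions) entered the test only through ventilated arrays.

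Counting signs alone, 32 of 45 genes (71.1%) were lower in ventilated lungs, against 56% of all probe sets. In prone lungs it was 32 (background 56.5%), in supine lungs 33 (73.3%, background 53.8%) and in supine against prone 28 (62.2%, background 47.1%). The median difference of the 45 was -0.62 in ventilated (all probe sets -0.10), -0.48 in prone (-0.12), -0.56 in supine lungs (-0.07) and -0.08 in supine against prone (0.03). Single arrays moved these medians. Without prone replicate 1 the median was 0.06 in prone and -0.18 in ventilated lungs, and without supine replicate 1 it was -0.30 in supine lungs. In supine against prone it ran from -0.58 without prone replicate 1 to 0.08 without supine replicate 1, and was 0.45 without the 3 arrays with Alb. Without the 3 arrays with Alb it was -0.96 in ventilated and -1.21 in prone lungs, the latter from prone replicate 1 alone. With all 66 genes and no filter it was 0.0055 in ventilated lungs.

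**Figure D2:**
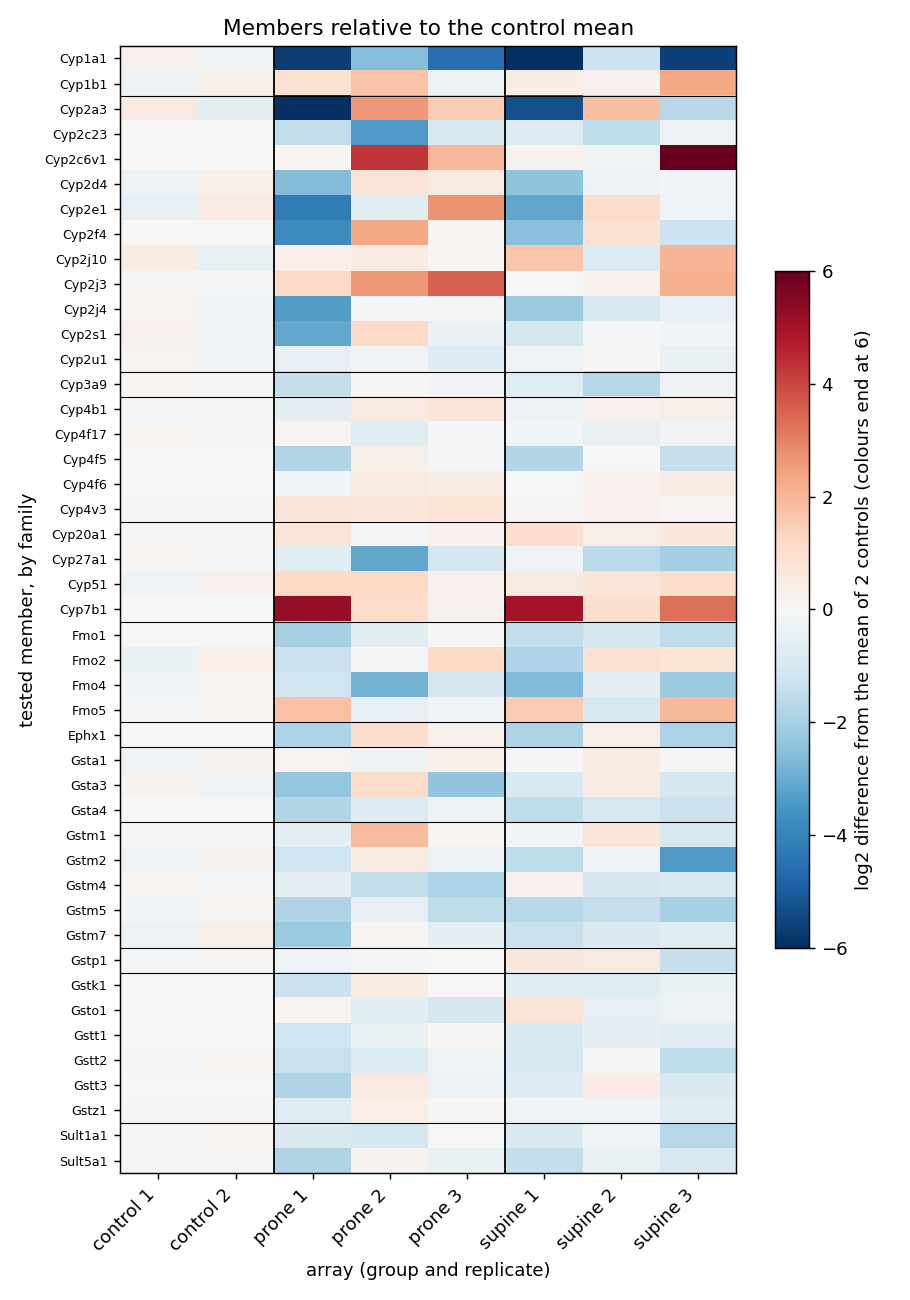
Log2 difference of each of the 45 tested genes (rows, grouped by family) from the mean of the 2 controls on each array (columns). Blue is lower and red higher than controls, and colours end at a difference of 6. Cyp1a1 is lower on all 6 ventilated arrays, and much of family 2 is lowest on prone and supine replicate 1.

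The P450s of family 1 are known for oxidising polycyclic aromatic hydrocarbons and for induction through the aryl hydrocarbon receptor. Cyp1a1 read 10.11 and 9.55 in control lungs, 4.13, 7.29 and 5.32 in prone lungs and 3.87, 8.59 and 4.21 in supine lungs. Every ventilated array lay below both controls, and the spread among ventilated arrays was wide. The difference was -4.26 ± 1.32 in ventilated against control lungs (SE; limma adjusted p = 0.164), -4.25 ± 1.48 in prone (adjusted p = 0.207) and -4.27 ± 1.48 in supine lungs (adjusted p = 0.276). Without supine replicate 2, its highest ventilated array, the ventilated difference was -5.02 and passed (adjusted p = 0.042) as the only one of the 45. In that fit 2.29% of all probe sets passed, so that 1 of 45 (2.22%) is the background share. Over all alternatives its adjusted p ranged from 0.042 to 0.767. Cyp1b1, which also acts on oestradiol, did not share this pattern: it read 7.51 and 8.17 in controls, 8.77, 9.56 and 7.55 in prone and 8.29, 8.08 and 10.14 in supine lungs. Its groups overlapped (0.89 ± 0.69, adjusted p = 0.505).

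In family 2, the largest P450 family, 11 of 17 genes were tested, and 8 were lower and 3 higher in ventilated lungs (median -0.70). Of the 3, Cyp2c6v1 entered the test only through ventilated arrays. Many of the lower values came from 2 arrays. Cyp2a3, which activates nitrosamines, read 10.16 and 9.07 in controls, 2.89, 12.20 and 11.14 in prone, and 4.35, 11.44 and 7.94 in supine replicates 1 to 3. Cyp2f4, a club cell P450 that oxidises naphthalene, read 10.48 and 10.44, then 6.63, 12.79 and 10.61, then 7.96, 11.38 and 9.20. Both were lowest on prone and supine replicate 1 and above controls on replicate 2 of each position. Cyp2e1, which oxidises ethanol and small solvents, read 9.46 and 10.49 in controls, 5.75, 9.23 and 12.64 in prone and 6.85, 11.06 and 9.70 in supine lungs. Cyp2s1, an epithelial P450 found outside the liver, read 9.26 and 8.70, then 5.90, 10.14 and 8.60, then 7.92, 8.87 and 8.80. Cyp2j4 (4.59 and 5.78 on the first arrays against 6.99 to 8.11 elsewhere) and Cyp2d4 (4.06 and 4.26 against 6.29 to 7.41) followed. The mean differences of these 6 genes between ventilated and control lungs ran from -1.29 ± 2.64 for Cyp2a3 to -0.61 ± 0.96 for Cyp2s1. Each was smaller than its standard error except that of Cyp2j4 (-1.17 ± 0.93), and none passed.

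The pattern was counted after its values were seen, as a description. Of the 45 genes, 14 (31.1%) were lower on prone and supine replicate 1 than on all other 6 arrays, against 13.5% of all tested probe sets. Only 3 of 45 (6.67%) were higher there than on the other 6, against 14.4%. Besides Cyp1a1 and the 6 genes of family 2 above, the 14 were Cyp4b1, Cyp4f5, Fmo2, Gsta4, Gstm7, Gstt1 and Sult5a1, and the 3 were Cyp7b1, Cyp20a1 and Gsto1. The median SD within the prone group was 1.01 for the 45 genes against 0.46 for all tested probe sets, and within the supine group 0.74 against 0.58. In controls it was 0.15 against 0.13.

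Markers of several cell types moved with the same arrays. The log2 of the summed level of the neutrophil markers was 16.71 and 16.55 on the first arrays, 13.23 and 13.51 in controls and 14.84 to 15.45 on the other 4 ventilated arrays. The receptor gene Csf3r, for example, read 12.79 and 11.96 there and 7.38 and 6.01 in controls. Summed macrophage markers were also highest there (13.48 and 13.40, against at most 12.92 elsewhere) and summed fibroblast markers lowest (14.79 and 14.31, against at least 15.15). These 2 sums rest on part of each list. Of the 5 macrophage markers, 2 (Cd68 and Adgre1) were above the other 6 arrays on both first arrays, while Mrc1 was lowest of all on supine replicate 1. The fibroblast marker Pdgfra read 13.59 and 13.10 on the first arrays, against 11.85 and 12.41 in controls, and Dcn was within the range of the other arrays. Endothelial markers summed to 14.65 and 14.92 there, 15.65 and 15.70 in controls and 14.89 on supine replicate 3. Mesothelial and lymphocyte markers were lower in ventilated lungs in 5 of 5 genes each (56% of all probe sets were lower), with medians of -2.80 and -2.39. Of these, Bnc1 entered the test only through the controls. On the first arrays the sums of both lists lay within the range of the other 6 arrays.

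The 5 club cell markers did not share 1 order. Scgb1a1, near the top of the scale, was lowest on the first arrays, at 15.35 and 15.42 against 15.54 to 15.72 elsewhere, and makes up most of their sum, which was 15.67 on both against 15.73 and 15.74 in controls. Hp (13.12 and 12.65, against at most 10.29) and Cldn10 (10.34 and 9.68, against at most 9.43) were highest there. Scgb3a1 read 7.93 and 9.75 there and Krt15 4.49 and 7.73, each within or near the range of the other arrays. Prone replicate 2, the array highest in Cyp2a3 and Cyp2f4, was also highest in the summed club cell markers (16.21), in Scgb3a1 (14.29) and in the 4 ciliated cell markers (13.59, against 11.55 and 11.87 in controls). In whole tissue, fewer cells of a type and less RNA per cell cannot be told apart, and the part of any of these cell types in the values of the enzymes was not tested.

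**Figure D3:**
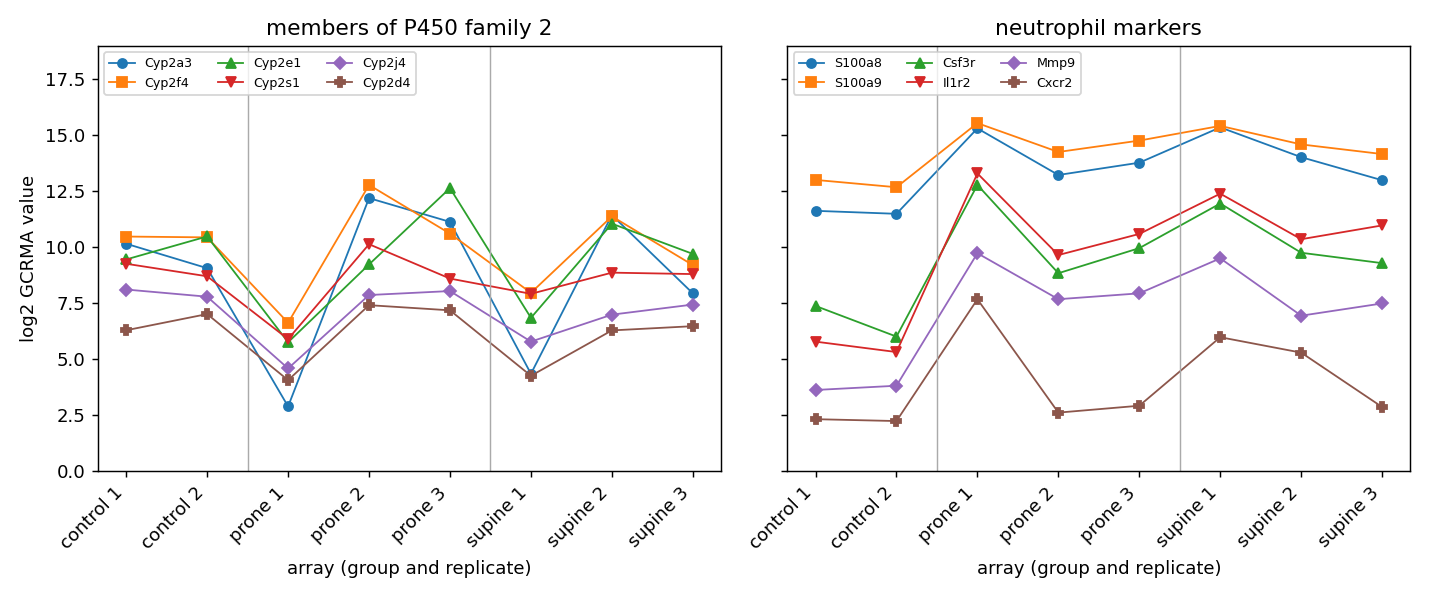
Log2 values (y axis) of 6 P450s of family 2 (left) and 6 neutrophil markers (right) on each array (x axis; grey lines separate the groups). The P450s are lowest on prone and supine replicate 1, where Cyp2a3 read 2.89 and 4.35, and the neutrophil markers are highest there.

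The other genes of family 2 varied in their own ways. Cyp2c23, an arachidonic acid epoxygenase known from kidney, read 7.97 and 7.93 in controls, 6.45, 4.54 and 7.02 in prone and 7.11, 6.41 and 7.64 in supine lungs. All ventilated arrays were below both controls, with differences of -1.95 ± 0.72 in prone (adjusted p = 0.226) and -0.89 ± 0.72 in supine lungs (adjusted p = 0.555). Cyp2j3, another fatty acid epoxygenase, read 5.87 and 5.73 in controls, 6.95, 8.41 and 9.33 in prone, and 5.78, 6.06 and 7.92 in supine lungs. It was 2.43 ± 0.83 higher in prone than in control lungs (adjusted p = 0.202), and its second probe set gave 5.46 and 5.97 in controls and 6.19 to 8.90 in prone lungs. The 3 arrays with the highest Cyp2j3 were those on which Alb reached log2 5, which also held for Cyp2c6v1, Cyp4b1 and Cyp4f6 (7.24% of all probe sets). Without those arrays the prone difference of Cyp2j3 was 1.15, from 1 prone array. Cyp2j10 (0.65 ± 0.73) had ventilated arrays on both sides of the controls. The fatty acid hydroxylase Cyp2u1 (-0.34 ± 0.28) read 8.11 and 7.77 in controls and 7.17 to 7.73 in prone lungs, while supine replicate 2 lay between the controls at 8.02.

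Family 3 was represented in the test by Cyp3a9 alone, which read 8.17 and 7.91 in controls, 6.62, 8.11 and 7.88 in prone and 7.31, 6.32 and 7.72 in supine lungs (-0.71 ± 0.51 in ventilated lungs). In family 4, which hydroxylates fatty acids and eicosanoids, all 5 genes were tested and 3 were higher and 2 lower in ventilated lungs. Cyp4b1, a P450 abundant in lung, had close group means of 12.44 in control, 12.68 in prone and 12.52 in supine lungs (0.16 ± 0.39 in ventilated lungs). Its arrays read 12.36 and 12.52 in controls, 11.92, 12.95 and 13.16 in prone and 12.12, 12.68 and 12.78 in supine lungs. Cyp4v3, a fatty acid hydroxylase, was the gene in which position separated the lungs. It read 11.76, 11.66 and 11.83 in prone and 11.05, 11.24 and 11.17 in supine lungs, against 10.93 and 11.05 in controls. Prone arrays were all above the others. The supine minus prone difference was -0.60 ± 0.23 (limma adjusted p = 0.942), the only 1 of 45 with groups that did not overlap in that comparison, or 2.22%. Of all probe sets, 5.89% did not overlap there, 2.11% lower and 3.78% higher in supine lungs. A second, dimmer probe set of Cyp4v3 read 5.58 to 6.31 in prone and 5.06 to 5.56 in supine lungs. Cyp4f5 was -0.76 ± 0.65, Cyp4f17 -0.24 ± 0.30 and Cyp4f6 0.25 ± 0.29 in ventilated lungs, the last -0.18 in prone lungs without the arrays with Alb.

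**Figure D4:**
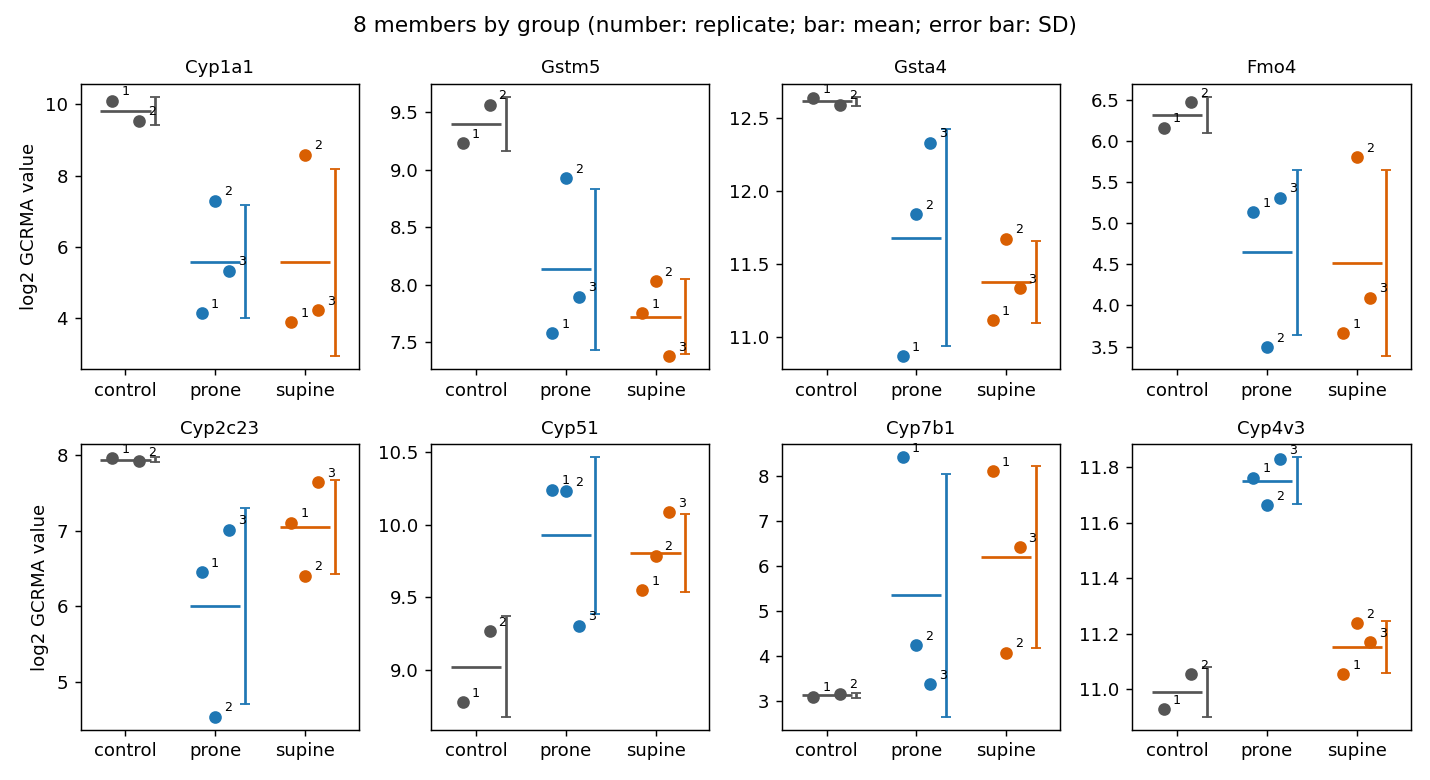
Log2 values (y axes, which differ between panels and do not start at 0) of 8 genes in control, prone and supine lungs. Each point is 1 array with its replicate number, bars are group means and error bars SD. All ventilated arrays lie below controls for Cyp1a1, Gstm5, Gsta4, Fmo4 and Cyp2c23 and above controls for Cyp51 and Cyp7b1, and prone arrays lie above the others for Cyp4v3.

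Of the sterol, steroid and vitamin P450s and the orphan Cyp20a1, 4 of 7 were tested. Cyp51, the lanosterol demethylase of cholesterol synthesis, read 8.78 and 9.27 in controls, 10.24, 10.23 and 9.31 in prone and 9.55, 9.79 and 10.09 in supine lungs. It was higher than both controls on all 6 ventilated arrays (0.84 ± 0.35, adjusted p = 0.251). Its second probe set had the same order of groups, at no more than 8.30 in controls and 8.70 to 9.72 in ventilated lungs (1.15 ± 0.35, adjusted p = 0.158). Cyp7b1, which hydroxylates oxysterols, read 3.10 and 3.17 in controls, 8.42, 4.25 and 3.39 in prone and 8.11, 4.08 and 6.43 in supine lungs. It was above the controls everywhere, by the most on prone and supine replicate 1. It reached log2 5 on 3 ventilated arrays and on neither control. Cyp7b1 thus entered the test only through the arrays on which it was high, and no difference from controls and no p is given for it. Cyp27a1, a mitochondrial sterol hydroxylase, was lower on all ventilated arrays: 9.71 and 9.50 in controls, 8.97, 6.48 and 8.57 in prone and 9.36, 7.98 and 7.55 in supine lungs (-1.45 ± 0.72, adjusted p = 0.318). Cyp20a1 was 0.48 ± 0.32 higher.

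All 4 flavin monooxygenases were tested. Fmo4 read 6.17 and 6.48 in controls, 5.14, 3.49 and 5.31 in prone and 3.66, 5.81 and 4.09 in supine lungs. It was below controls on every ventilated array (-1.74 ± 0.68, adjusted p = 0.229), at levels near the low end. Fmo1 read 12.20 and 12.29 in controls, 10.25, 11.62 and 12.33 in prone and 10.77, 11.20 and 10.70 in supine lungs, so that the supine arrays lay below controls (-1.35 ± 0.57, adjusted p = 0.321) and the prone arrays overlapped them. Fmo2, the main form in the lung of many mammals, had almost equal group means of 13.15 ± 0.54 (SD, n = 2), 13.09 ± 1.24 (n = 3) and 13.12 ± 1.59 (n = 3), over arrays that ranged from 11.28 to 14.33. Its other 2 probe sets were also lowest on prone and supine replicate 1. Fmo5 was higher on 3 arrays (11.41 and 11.18 on the first arrays and 11.60 on supine replicate 3) than on the other 5 (8.75 to 9.80). Ephx1, the microsomal epoxide hydrolase and the sole epoxide hydrolase here, read 10.12 and 10.18 in controls, 8.32, 11.23 and 10.43 in prone and 8.32, 10.48 and 8.29 in supine lungs (-0.64 ± 0.85).

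Glutathione transferases held the gene with the smallest p of all 45 in ventilated and in supine lungs. Gstm5, of the mu class, read 9.23 and 9.56 in controls, 7.58, 8.92 and 7.90 in prone and 7.75, 8.03 and 7.38 in supine lungs. All 6 ventilated arrays lay below both controls, with group means of 9.40 ± 0.24 (SD, n = 2), 8.13 ± 0.70 (n = 3) and 7.72 ± 0.33 (n = 3). The difference was -1.47 ± 0.40 in ventilated lungs (limma adjusted p = 0.137), -1.26 ± 0.45 in prone (adjusted p = 0.212) and -1.67 ± 0.45 in supine lungs (adjusted p = 0.22). Gsta4, of the alpha class, which conjugates aldehydes from lipid peroxidation, read 12.64 and 12.59 in controls, 10.87, 11.84 and 12.33 in prone and 11.12, 11.67 and 11.34 in supine lungs. It too was lower on all 6 (-1.09 ± 0.40, adjusted p = 0.211). In all, 6 of 45 genes (13.3%) were lower on every ventilated array than on both controls, against 16.7% of all probe sets: Cyp1a1, Cyp2c23, Cyp27a1, Fmo4, Gsta4 and Gstm5. The 2 that were higher (4.44%, against 12.9%) were Cyp51 and Cyp7b1, of which Cyp7b1 entered the test only through ventilated arrays. Together the 8 genes made up 17.8%, against 29.6% of all probe sets, so that all these shares were below the background.

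The stretches before the starts of Gstm5, Gsta4 and Cyp51, the genes of lowest p in ventilated lungs (2 lower, 1 higher) with an entry in the RefSeq promoter table, are shown with 2 motifs in capitals. These are the core of the aryl hydrocarbon receptor element (GCGTG, or CACGC on the other strand) and the antioxidant response element (TGACNNNGC), searched on both strands. They lie at chr2:198219519-198219768, chr8:87947015-87947246 and chr4:30991443-30991692 of GRCr8, all on the plus strand, and bases inside another transcript model of Gsta4 were left out.
Gstm5: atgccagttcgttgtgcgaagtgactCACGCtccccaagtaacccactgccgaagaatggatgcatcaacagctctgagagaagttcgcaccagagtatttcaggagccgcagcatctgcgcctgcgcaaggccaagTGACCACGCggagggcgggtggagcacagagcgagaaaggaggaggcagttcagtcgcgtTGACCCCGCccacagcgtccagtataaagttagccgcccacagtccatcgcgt
Gsta4: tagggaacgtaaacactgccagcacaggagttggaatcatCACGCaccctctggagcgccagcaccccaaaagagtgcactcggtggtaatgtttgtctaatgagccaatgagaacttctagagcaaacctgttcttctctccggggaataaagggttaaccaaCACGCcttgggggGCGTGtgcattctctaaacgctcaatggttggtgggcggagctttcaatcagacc
Cyp51: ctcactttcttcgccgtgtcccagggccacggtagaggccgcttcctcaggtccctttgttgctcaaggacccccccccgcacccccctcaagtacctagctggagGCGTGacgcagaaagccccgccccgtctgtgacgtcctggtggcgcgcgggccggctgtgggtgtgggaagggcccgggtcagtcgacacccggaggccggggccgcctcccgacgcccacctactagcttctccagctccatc
In Gstm5 one receptor core lies inside the first antioxidant element. Over the 250 bases before the start, the receptor core was found in 13 of the 58 genes with an entry (22.4%) and in 25.9% of 33469 promoters. The antioxidant element was found in 7 of 58 (12.1%) and in 10.1% of all. A match is a description of the letters, not of a bound site. Cyp1a1, Cyp2c6v1, Cyp4f17, Cyp4v3, Cyp7b1, Fmo4, Gstt1 and Gstt2 are the genes without an entry.

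The 5 mu class genes lie on 1 chromosome within a run of 9 protein-coding genes, in the order Gstm5, Gstm7, Gstm2, Gstm1 and Gstm4 in the RefSeq annotation of GRCr8, with only other mu class genes between them. They differed in their order of arrays. Gstm4 read 8.38 and 8.15 in controls, 7.68, 6.80 and 6.35 in prone and 8.51, 7.26 and 7.34 in supine lungs, which put the prone arrays below controls (-1.32 ± 0.52, adjusted p = 0.251). Without prone and supine replicate 1 that difference was -1.69 and passed (adjusted p = 0.0432) as the only one of the 45. In that fit 4.86% of all probe sets passed, against 2.22% of the 45. Over all alternatives its adjusted p ranged from 0.0432 to 0.799. Gstm2 read 10.64 and 11.02, then 9.61, 11.32 and 10.50, then 9.32, 10.64 and 7.42, so its supine difference of -1.71 ± 0.90 (adjusted p = 0.396) was -0.85 without replicate 3, the array with the wide 3′ to 5′ gap. Gstm1 was highest on prone replicate 2 (11.92, against 9.99 and 10.11 in controls), and its difference was 0.17 ± 0.68. Gstm7 stood at -0.93 ± 0.60. Mu class genes are close in sequence, and whether a probe set reads more than 1 of them was not tested.

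The other transferases followed no single order of arrays. Gsta1 had 12.93 and 13.32 in controls and 12.81 to 13.55 on the ventilated arrays, while Gsta3 ran from 3.95 to 7.46 over the arrays (-0.83 ± 0.94). Gstp1, the pi class enzyme of airway epithelium, read 12.92 and 13.05 in controls, 12.75 to 13.01 in prone lungs and 13.64, 13.51 and 11.59 in supine lungs, the last on the array with the wide 3′ to 5′ gap. All 6 tested genes of the theta, kappa, omega and zeta classes had lower means in ventilated lungs (median -0.46), with Gstt2 at -0.83 ± 0.45, Gstt1 at -0.62 ± 0.36, Gstt3 at -0.48 ± 0.63, Gstk1 at -0.44 ± 0.45, Gsto1 at -0.26 ± 0.44 and Gstz1 at -0.21 ± 0.35. Gstt1 read 8.53 and 8.54 in controls and 7.59, 7.93 and 7.91 in supine lungs, all below. Of 8 sulfotransferases 2 were tested. The phenol sulfotransferase Sult1a1 read 13.14 and 13.41 in controls, 12.43, 12.21 and 13.24 in prone and 12.41, 13.10 and 11.61 in supine lungs (-0.78 ± 0.45, adjusted p = 0.379). Sult5a1 stood at -0.80 ± 0.53.

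Partner genes supply electrons, cofactors and cosubstrates or act beside these enzymes. Of 55 listed, 42 were found and 40 tested. None passed with limma in any comparison. At an unadjusted p under 0.05, 2 of the 40 were higher and 5 lower in prone lungs (background 7.67% and 10%). In supine lungs 4 were higher and 6 lower (background 7.18% and 8.05%), and in ventilated lungs 3 and 7 (background 8.53% and 10.6%). In supine against prone 1 was higher (background 2.6%). Adh7, which entered the test only through the controls, is among the genes counted as lower in prone, supine and ventilated lungs. The median in ventilated lungs was -0.11.

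The reductase Por varied little apart from supine replicate 3: 10.95 and 11.14 in controls, 11.22, 11.35 and 11.23 in prone and 10.82, 11.27 and 9.79 in supine lungs. The largest difference was in Akr1b8, an aldo-keto reductase, at 7.72 and 7.65 in controls against 10.58 to 13.18 on the ventilated arrays (4.28 ± 0.58, limma adjusted p = 0.0573). Hmox1, which degrades haem, read 9.14 and 9.15 in controls, 12.04, 14.26 and 14.22 in prone and 11.79, 9.93 and 13.03 in supine lungs (3.40 ± 0.88, adjusted p = 0.127). Both were above controls on all 6 ventilated arrays, as was Gclc, the catalytic subunit of glutathione synthesis. Gclc read 8.13 and 8.12 in controls, 8.77, 8.33 and 9.07 in prone and 9.26, 9.59 and 9.90 in supine lungs, so that supine arrays lay above prone ones (0.86 ± 0.30, adjusted p = 0.942). Alas1, the first enzyme of haem synthesis, was 1.32 ± 0.60 higher in prone lungs. Ugdh, which makes the cosubstrate of glucuronidation (1.22 ± 0.78), and Ggt1, which breaks down glutathione (1.09 ± 0.74), were higher in the mean of ventilated lungs.

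Adh7, an alcohol dehydrogenase of epithelia, read 5.96 and 7.65 in controls against 3.38 to 4.18 on the ventilated arrays. It entered the test only through the 2 controls and was at the low end of the scale on all 6 ventilated arrays, so no size or p is given for it. Mgst3, a microsomal glutathione transferase, read 10.83 and 10.95 in controls, 8.99, 9.14 and 9.65 in prone and 9.67, 9.80 and 7.09 in supine lungs (-1.83 ± 0.70). Akr7a3, an aflatoxin aldehyde reductase, stood at -1.53 ± 0.40 and the thiopurine methyltransferase Tpmt at -1.48 ± 0.50, and in both all ventilated arrays were below controls. The arylamine acetyltransferase Nat1 was -1.47 ± 0.50 in prone lungs and 0.56 ± 0.45 in supine against prone (0.17 without prone replicate 2). The mitochondrial aldehyde dehydrogenase Aldh2 was -1.60 ± 0.87 in supine lungs and -0.64 without supine replicate 3, where it read 9.42 against 11.91 and 12.71 on the other supine arrays. Against controls, leaving that array out also moved Mgst3 in supine lungs from -2.04 to -1.15. The quinone reductase Nqo1 was 0.53 ± 0.33 higher in supine than in prone lungs, and 0.82 without supine replicate 3.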

How the data were processed

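Per the submitters' processing notes, GCRMA and Partek 6.5 were used to make the deposited tables. The values the authors deposited are log2 intensities per probe set, as their range shows, and labelling used 300 ng of total RNA. No filter or test of the authors is stated. Groups came from the condition label, which gives high tidal volume for both positions. The titles read HVt for prone and SVt for supine samples, and this difference could not be resolved. After 28 control probe sets were removed, 16896 of 20214 reached log2 5 on 2 or more arrays and were tested. GEO's platform annotation gave them 1 symbol (13155), several (319) or none (3422). Of the 66 genes, 0 had another symbol in the RefSeq table of GRCr8 and Sult1e1 had no match.

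Differences came from limma 3.58.1 (R 4.3.3), fitting group means over the 8 arrays jointly with 5 residual and 2.51 prior degrees of freedom, two-sided, with Benjamini-Hochberg adjustment within each comparison. Errors after ± are standard errors of the fit unless SD is stated. The prone, supine and ventilated comparisons share their controls. The p-values set each difference against the spread between these samples within groups, as moderated by limma. The fit was tested on simulated data, and no power on these arrays is read from that. Same-numbered arrays deviated together in all 7 pairs across groups (correlations of deviations from group means 0.109 to 0.721, highest for prone and supine replicate 1). The number comes from the titles and was also used as a block.

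The genes and lists were chosen with earlier results of these data known. The naming rule took, per comparison, the 8 smallest p in each direction, then the 15 highest control means and 23 lung enzymes, not all of which are analysed here. Of the partner genes it took the 4 largest differences in each direction per comparison. Por and the genes outside the rule were named after their values were seen. The alternatives were 16 planned and 2 added after seeing the data.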

Additional observations from a re-analysis of the deposited data

How the results depend on the processing

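No enzyme gene passed with limma in any of the 4 comparisons under 16 of the 18 alternatives. The 2 exceptions were 1 gene (Cyp1a1, -5.02, adjusted p = 0.042) in ventilated against control lungs without supine replicate 2, so that this count ranged from 0 to 1 over the 8 fits that each left out 1 array, and 1 gene (Gstm4, -1.69, adjusted p = 0.0432) in prone against control lungs without the first prone and supine arrays. With the replicate number as a block 0 passed in every comparison, as without it, and the count at an unadjusted p under 0.05 in ventilated lungs was 8 in place of 5. Of 1133 alternative values of 64 gene differences, 1118 kept their direction and their side of the threshold, 2 newly passed and 13 changed sign, all but 1 in supine against prone. Without the 3 arrays with Alb at or above log2 5, which leaves 1 prone and 2 supine arrays, the supine minus prone differences were -0.13 for Cyp20a1, -0.0017 for Cyp2j10, -2.33 for Cyp7b1, 0.36 for Gstm2, 1.08 for Ephx1, 0.31 for Gstm5, 0.74 for Fmo1, 0.83 for Gstm1 and 0.88 for Cyp4f5, and the prone minus control difference of Cyp4f6 was -0.18. Leaving out 1 array gave supine minus prone differences of -1.12 to 0.087 for Gstm1 and -0.13 to 2.39 for Cyp7b1. The causes were not tested. The number of all probe sets passing was 24 in ventilated and 9 in prone lungs, and ranged over the alternatives from 0 to 427 and from 0 to 808, the highest counts coming without the first prone and supine arrays. In supine lungs it was 9 and ranged from 0 to 154, and in supine against prone it was 0 and ranged from 0 to 3. A lone array in a group was taken to vary like the others. Background correction could not be changed, because only summarised values were used, and without detection calls a low value cannot be told from background.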
